A study of Arabidopsis thaliana with 4 samples.

Results

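Chromatin loops that joined anchors more than 200 kb apart on 1 chromosome, or anchors on different chromosomes, were taken from the lists of H3K4me3-associated loops, one for the wild type, Col-0, and another for *myc2* mutant plants. The rule used 2 columns of each list, the flag for loops within a chromosome and the distance between the midpoints of the anchors. It found 4 of 36723 loops in Col-0 (0.0109%) and 427 of 32312 loops in *myc2* (1.32%), so 431 of 69035 loops in all. These percentages describe the choice of the loops and carry no test. The *myc2* loops were 171 loops over 200 kb within a chromosome and 256 loops between chromosomes, whereas all 4 Col-0 loops lay within a chromosome. Shoots of 2-week-old seedlings, grown at 22 °C with 16 h of light and 8 h of darkness a day, were crosslinked with 1.5 mM EGS for 30 min and then 1% formaldehyde for 10 min. The 2 replicates of a genotype were combined by the authors into 1 loop list, so no spread between replicates can be given. The labels name no *myc2* allele. Every interval below is an exact 95% interval and covers counting error only.

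ChIA-PET enriches crosslinked chromatin with an antibody, ligates the DNA ends held near each other in it, and sequences both sides of each junction. Here the antibody bound H3K4me3, the histone mark at the start of active genes, so the anchors are mostly gene starts. A pair of ends read from 1 fragment is a paired-end tag (PET), and the PETs that join a pair of anchors form a loop. The tags of an anchor are the count that the lists give for it, taken here as the ends that map in it. The lowest count of a *myc2* anchor was 0 tags, which the sources used here do not explain. Ligation falls steeply with distance along the chromosome. Contacts across megabases or between chromosomes are therefore rare in such maps, and chance ligation of DNA from different complexes yields pairs with no regard to distance. MYC2 is a basic helix-loop-helix transcription factor that binds the G-box and drives the response to jasmonate, the wound and defence hormone.

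The loop with most PETs of all 431 joined a pair of pseudogenes on chromosome 3, and its left anchor held sequence that recurs near the right one. The anchor in AT3G06433, annotated as a pseudogene of a nodulin MtN3 family protein, and the anchor in the pseudogene AT3G10100 were joined by 16 PETs in Col-0 and by 7 PETs in *myc2* over 1.15 Mb. Of the left anchor, 397 bases matched a copy at 86.65% identity that begins 9.17 kb beyond the right anchor. The first 120 bases of the aligned stretch are printed from both places (RefSeq TAIR10.1, plus strand), with capitals for the 6 bases that differ. The last line is the middle of the right anchor, which holds no such copy.
AT3G06433 anchor, chr3:1959461-1959580: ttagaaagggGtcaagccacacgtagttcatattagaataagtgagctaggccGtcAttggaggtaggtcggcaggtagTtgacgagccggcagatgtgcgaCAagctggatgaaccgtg
copy beyond the right anchor, chr3:3121757-3121876: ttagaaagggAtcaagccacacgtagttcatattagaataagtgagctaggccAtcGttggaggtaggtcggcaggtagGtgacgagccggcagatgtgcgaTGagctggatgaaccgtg
AT3G10100 anchor, chr3:3112009-3112158: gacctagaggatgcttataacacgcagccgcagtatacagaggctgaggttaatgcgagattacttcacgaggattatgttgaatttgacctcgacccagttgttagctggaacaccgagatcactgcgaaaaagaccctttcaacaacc

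In the nuclear genome the 568-base stretch had 4 copies at 80% of its length and identity or more, all on chromosome 3. The other copies began at 3.12, 16.7 and 22.2 Mb. Among the 431 loops, a copy of 100 bases or more of 1 anchor within 20 kb of the partner anchor was found for this pair alone, 1 of 4 loops in Col-0 and 1 of 427 in *myc2* (0.234%, 0.00593% to 1.30%). The other loops of the lists were not searched for such copies, so no share over them can be set beside these. Counting sequence outside the anchors too, 7 stretches of 100 bases or more, at 83.1% to 96.8% identity, lay within 1.43 kb of an anchor of the left region and again 8.71 to 9.51 kb beyond the right one. How the aligner placed reads of this stretch is not given in the sources used here, and the part of the copies in the loop was not tested. No loop of either list over 200 kb or between chromosomes had an alike stretch shared directly by its anchors (0 of 427 in *myc2*, where 3 counts would make a share of 0.703%, and an exact upper limit of 0.860%). Among the other *myc2* loops, 153 of 31868 had an alike stretch of 100 bases or more, and among those of 40 to 200 kb 1 of 1374.

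The same pair of chromosome 3 regions held further loops with gene starts at their anchors, and no copy of these anchors was found near their partners. The left region spanned 64.8 kb from 1948797 to 2013600 and the right region 16.0 kb from 3096562 to 3112583. Their bounds are the outermost anchors of the loops that join them, so the regions were drawn around loops already seen. Of the 60 anchor pairs that could join them, 3 were listed in Col-0 with 37 PETs and 7 in *myc2* with 41 PETs. These were 3 of the 4 Col-0 loops and 7 of the 427 *myc2* loops. In Col-0 the anchor at PPR2 (AT3G06430), a pentatricopeptide repeat gene, was joined to the anchor at the neighbouring genes OMR1 and AT3G10060 by 11 PETs, with 1695 and 3749 tags. It was joined by 10 PETs to the anchor at TAF12, which encodes a subunit of the general transcription factor TFIID. OMR1 encodes threonine deaminase of isoleucine synthesis, and AT3G10060 an FKBP-like isomerase.

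In *myc2* the loop of PPR2 with OMR1 and AT3G10060 had 5 PETs, from anchors of 1476 and 3091 tags, and the loop of PPR2 with TAF12 was not listed. The anchor at OMR1 and AT3G10060 was joined by 7 PETs each to AT3G06410, a zinc finger gene, and to AT3G06440, a galactosyltransferase gene. PPR2 was joined by 5 PETs to AT3G10090, a nucleic acid-binding protein gene, and TAF12 by 5 PETs to AT3G06450, an HCO3- transporter family gene. The remaining loop joined the neutral invertase gene A/N-InvC to AT3G10040 (HYPOXIA RESPONSE ATTENUATOR1) with 5 PETs. Thus 2 of the 4 Col-0 loops, PPR2 to AT3G10060 and the pseudogene pair, had a *myc2* loop with identical anchors, and both lay in this pair of regions. The stretch between OMR1 and AT3G10060, and the bases before PPR2 that lie in its anchor, are printed because these anchors recur in both lists. The letters are those of the gene's own strand, and capitals mark a match to the TATA motif.
OMR1 and AT3G10060, chr3:3102049-3102073, plus strand: ttctaagttttagcaaaacaaatat
PPR2, chr3:1958305-1958445, minus strand: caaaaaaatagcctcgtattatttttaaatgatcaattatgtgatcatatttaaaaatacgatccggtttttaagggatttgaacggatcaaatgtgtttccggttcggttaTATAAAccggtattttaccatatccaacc

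**Figure D1:**
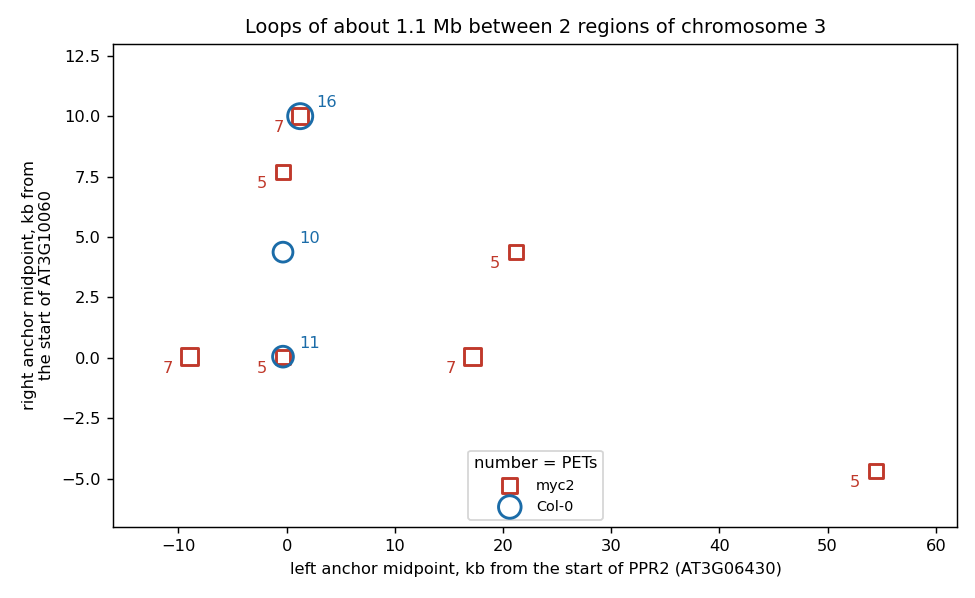
Each point is a loop between the left and the right region of chromosome 3, with the left anchor's midpoint on the x axis and the right anchor's on the y axis, both in kb from a gene start, and PETs as numbers beside it. Circles are the 3 Col-0 loops of 10 to 16 PETs and squares the 7 *myc2* loops of 5 to 7 PETs, 2 of which lie on Col-0 loops.

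Relative to the tags of its anchors, the pseudogene loop stood higher than its neighbours. PETs were divided by the product of the tags of both anchors, the number of tag pairs. No loop under 10 PETs was listed in Col-0, or under 5 PETs in *myc2*. The lowest value that a listed loop can have is thus higher where its anchors hold fewer tags, and the ranks below carry this limit. The pseudogene anchors held 879 and 800 tags in Col-0 and 648 and 600 in *myc2*, which gave 22.8 and 18.004 PETs per 1000000 tag pairs. That was above 95.7% of all Col-0 loops and 95.8% of all *myc2* loops of any span. The loop of PPR2 and AT3G10060 had 1.73 in Col-0 and 1.096 in *myc2*, above 6.21% and 4.85% of the loops. Of the other loops between the regions, that of PPR2 and AT3G10090 in *myc2* had 6.53, above 70.8% of the list, and the rest stood above 4.17% to 20.2% of theirs. Within the regions the same pseudogene anchors had 1 short loop each, of 18 PETs for AT3G06433 and 12 PETs for AT3G10100 in Col-0, and of 6 PETs each in *myc2*. The anchor at OMR1 and AT3G10060 had 11 shorter loops with 307 PETs in Col-0 and 9 with 117 PETs in *myc2*.

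The remaining Col-0 loop lay near the centromere of chromosome 1, at 3.60% and 5.73% of the arm counted from it. It joined AT1G41880, a ribosomal protein L35Ae gene (15651713 to 15652671), to PMI1, also known as AT1G42550 (15976160 to 15979056), a gene needed for chloroplast movement, over 325 kb with 10 PETs. Its anchors held 1247 and 4358 tags. In *myc2* no loop of any span used the AT1G41880 anchor, and no loop over 200 kb lay within 50 kb of this one at both ends. The PMI1 anchor was also an end of the longest Col-0 loops below the threshold, which reached AT1G42960 at 148 kb with 14 PETs and AT1G42970 at 151 kb with 20 PETs. In Col-0 no loop lay between 151 kb and 325 kb. In *myc2* the spans ran on across the threshold, with 199 kb just below it (AT1G60890 and AT1G61310, 5 PETs) and 200.4 kb just above it (AT2G01480 and AT2G01910, 5 PETs).

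Most of the *myc2* loops sat at the lowest PET count listed. Of the 427 loops 327 had 5 PETs (76.6%, 72.3% to 80.5%), 76 had 6, 18 had 7, 3 had 8, 2 had 9 and 1 had 10. Loops between chromosomes had 5 PETs in 75.8% (70.1% to 80.9%) and loops over 200 kb in 77.8% (70.8% to 83.8%). The share was 60.3% (57.7% to 62.9%) among loops of 40 to 200 kb and 12.5% (11.98% to 13.1%) among loops under 10 kb. The 427 loops thus hold 2269 PETs, 0.763% of the PETs in the list. The authors' FDR ranged from 1.27e-20 to 7.58e-05 for them, and up to 0.000111 for the other *myc2* loops.

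**Figure D2:**
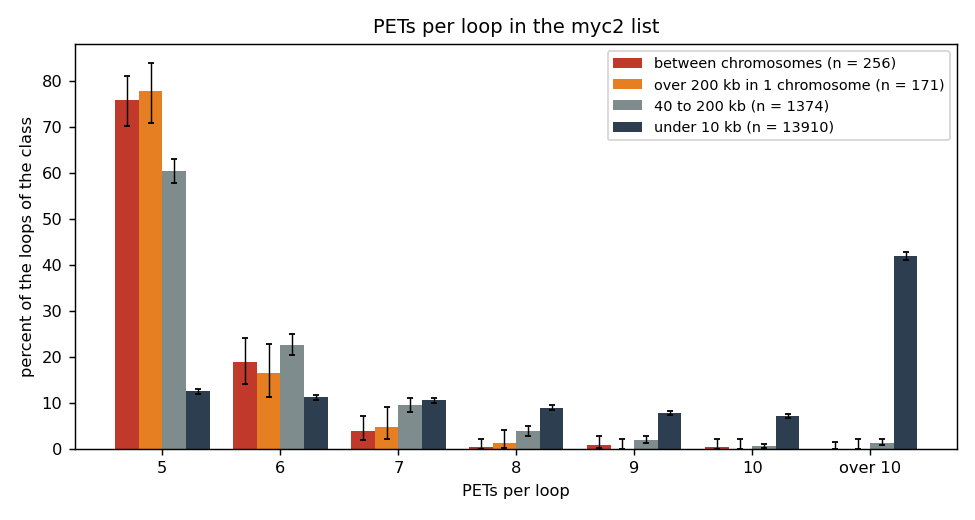
The x axis gives the PETs of a loop and the y axis the percentage of the loops of each class in the *myc2* list, with exact binomial 95% intervals. At 5 PETs stand 75.8% of the loops between chromosomes, 77.8% of those over 200 kb, 60.3% of those of 40 to 200 kb and 12.5% of those under 10 kb.

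The lists do not start at the same count, at 10 PETs in Col-0 and at 5 in *myc2*. At 10 PETs or more, *myc2* kept 1 of 10344 loops and Col-0 4 of 36723. From 6 PETs *myc2* had 100 such loops, from 7 it had 24, from 8 it had 6 and from 9 it had 3. At 20 PETs or more neither list had any. The listed PETs sum to 745505 in Col-0 and 297390 in *myc2*, so 10 PETs need not be a like cut in both lists. A far loop of 5 to 9 PETs in Col-0 would not have been listed. Genotype, PET minimum and depth therefore cannot be told apart for the difference of 427 against 4.

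The *myc2* loop of 10 PETs joined CRK (AT3G50530), a CDPK-related kinase gene on chromosome 3, to IRX14 (AT4G36890), a glycosyltransferase gene of xylan synthesis on chromosome 4. The anchors lie at chr3:18753520-18754796 and chr4:17380795-17381964 and held 2055 and 2763 tags, against 2406 and 2981 in Col-0. Its FDR was 4.01e-17. Both genes recurred, IRX14 in loops of 5 PETs with AT2G38330 and GSTT2, and CRK in a loop of 6 PETs with AT3G54820, an aquaporin gene. The longest intron stretch within each anchor is printed as an example of the sequence joined, on the gene's strand, with capitals for a match to the TATA motif.
CRK, chr3:18754391-18754495, plus strand: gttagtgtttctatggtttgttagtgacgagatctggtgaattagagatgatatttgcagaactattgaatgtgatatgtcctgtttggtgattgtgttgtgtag
IRX14, chr4:17380795-17380890, minus strand: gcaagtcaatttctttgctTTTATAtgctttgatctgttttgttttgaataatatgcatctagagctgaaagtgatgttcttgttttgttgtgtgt

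The GC content of these intron stretches was 36.2% and 31.25%, and the anchors of this loop shared no alike stretch. SNL3 (AT1G24190), a SIN3-like corepressor gene, was joined to PPI1 (AT4G27500), a proton pump interactor gene, by 9 PETs, with 927 and 2420 tags. AT1G51570, a calcium-dependent lipid-binding gene, was joined to the O-fucosyltransferase gene AT2G37980 by 9 PETs, with 5606 and 664 tags. CAM5 (AT2G27030), a calmodulin gene, was joined to the spliceosome-associated gene AT5G38600 by 8 PETs, with 1496 and 435 tags. These are all the loops between chromosomes with 8 or more PETs.

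Within chromosomes, 2 *myc2* loops had 8 PETs. ADR1-L2 (AT5G04720), a gene of an immune receptor helper, was joined to PAD2 (AT5G66140), a proteasome subunit gene, over 25.1 Mb of chromosome 5 and across its centromere, the longest span in either list. AT1G42960, a gene of an inner membrane protein, was joined to the SNARE-associated gene AT1G79070 over 13.6 Mb on 1 arm of chromosome 1. The AT1G42960 anchor is the one that PMI1 reached at 148 kb in Col-0. Among the loops of 7 PETs with most tags were those of AT3G06410 and AT3G06440 described above. The others were CID4 with the ubiquitin ligase gene PUB25 (2.08 Mb) and HEN2, an RNA helicase gene of the nuclear exosome, with an anchor given to no gene (0.308 Mb).

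Per anchor pair that could have been joined, the *myc2* loops fell with distance and then levelled off. Between 200 kb and 1 Mb there were 28.9 loops per 1000000 possible pairs (21.8 to 37.6), between 1 and 5 Mb 8.24 (6.30 to 10.6), and between 5 and 10 Mb 4.31 (2.76 to 6.41). Over 10 Mb the rate was 2.95 (2.00 to 4.19), and between chromosomes it was 2.63 (2.32 to 2.98). The last 2 intervals overlap. At 40 to 200 kb the rate was 3436 (3256 to 3622). Over the 97245151 pairs of anchors on different chromosomes, the Col-0 list of 10 PETs or more had 0 loops, with an exact upper limit of 0.0379 loops per 1000000 pairs, and *myc2* at 10 PETs or more had 1 loop, or 0.0103 (0.000260 to 0.0573).

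**Figure D3:**
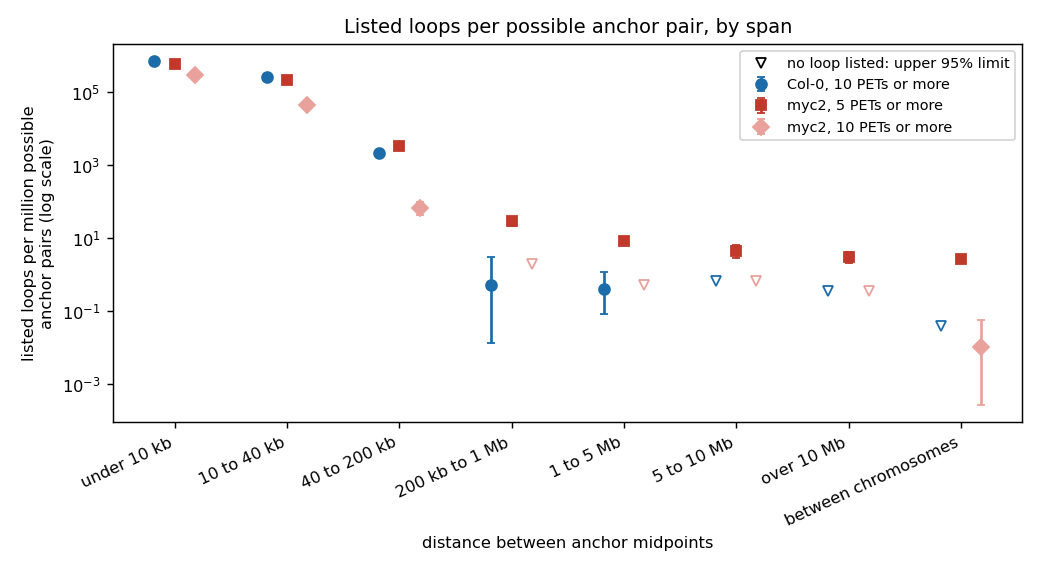
The x axis gives the distance between anchors and the y axis the listed loops per 1000000 possible anchor pairs on a log scale, with exact Poisson 95% intervals and open triangles for upper limits where no loop was listed. The *myc2* list from 5 PETs falls from 28.9 at 200 kb to 1 Mb to 2.63 between chromosomes, while Col-0 and *myc2* from 10 PETs have at most 3 loops in any class over 200 kb.

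The 171 far loops within chromosomes had a median span of 2.00 Mb, with quartiles of 0.579 and 6.64 Mb. By span, 39 lay between 0.2 and 0.5 Mb, 16 between 0.5 and 1 Mb, 30 between 1 and 2 Mb, 31 between 2 and 5 Mb, 24 between 5 and 10 Mb, 24 between 10 and 20 Mb, and 7 beyond 20 Mb. Chromosome 1 held 47 loops, chromosome 5 46, chromosome 3 42, chromosome 2 23 and chromosome 4 13. Relative to possible pairs the rate was 8.59 per 1000000 on chromosome 3, of which the chromosome 3 regions gave 7 loops, 8.33 on chromosome 2, 6.59 on chromosome 5, 5.54 on chromosome 1 and 4.67 on chromosome 4. The counts on chromosomes 4 and 2, 13 (6.92 to 22.2) and 23 (14.6 to 34.5), overlap in their intervals. The median span was longest on chromosome 1, at 5.08 Mb, and shortest on chromosome 3, at 1.14 Mb.

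Loops stayed on 1 arm in 139 of the 171 cases and crossed the centromere in 32 (18.7%, 13.2% to 25.4%), whereas 43.1% of the possible pairs of anchors within chromosomes crossed it. The centromere was taken as the middle of the 2 Mb with fewest genes. At a like span the intervals overlapped. Between 5 and 10 Mb the rate was 4.38 per 1000000 pairs (2.64 to 6.84) on the same arm and 4.06 (1.32 to 9.46) across the centromere. Over 10 Mb it was 6.04 (1.65 to 15.5) on the same arm, from 4 loops, and 2.74 (1.81 to 3.99) across, from 27 loops. The longest loops included RAB11c with AT1G65190 (21.1 Mb), AT1G11930 with TIR (23.4 Mb) and AT1G14130 with GT2 (24.0 Mb), each of 5 PETs.

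All 10 pairs of chromosomes were joined. The counts ran from 43 for chromosomes 1 and 5 to 12 for chromosomes 2 and 4. Relative to possible pairs, chromosomes 2 and 5 had the highest rate, at 3.30 per 1000000 (2.21 to 4.74), and chromosomes 4 and 5 the lowest, at 2.16 (1.30 to 3.37). The interval of every chromosome pair held the rate over all pairs, 2.63. Chromosome 1 took part in 129 of the 256 loops, chromosome 5 in 117, chromosome 3 in 97, chromosome 2 in 88 and chromosome 4 in 81.

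**Figure D4:**
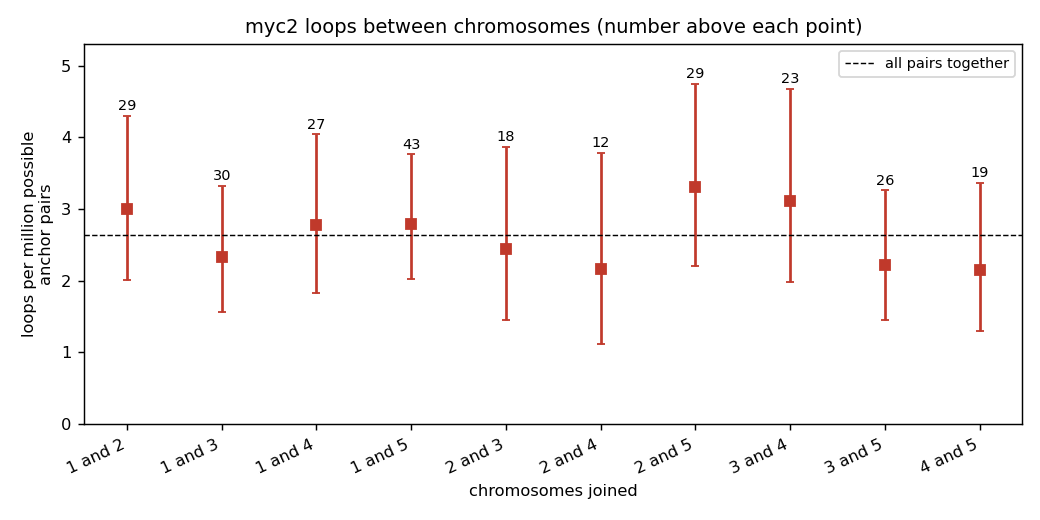
The x axis names the chromosomes joined and the y axis gives *myc2* loops per 1000000 possible anchor pairs with exact Poisson 95% intervals, the number of loops standing above each. The dashed line is the rate over all pairs, 2.63, and it crosses every interval.

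Anchors of these loops lay along the arms much as all anchors did. Counting from 0% at the centromere to 100% at the chromosome end, their median position was 66.1% (62.9% to 68.6%) for 760 distinct anchors, against 63.7% (63.1% to 64.3%) for all 15045 *myc2* anchors. Within 1 Mb of a chromosome end lay 12.9% (10.6% to 15.5%) of them and 11.95% of all anchors. Within 2 Mb of the centromere lay 3.29% (2.14% to 4.82%) and 2.35% of all anchors. In loops between chromosomes the positions of the joined anchors differed by at most 10 percentage points in 67 of 256 (26.2%, 20.9% to 32.0%), as did 22.2% of all possible pairs. Across the 256 loops the positions had Pearson's r = -0.02 and Spearman's rho = -0.02, given as a description since loops share anchors and libraries. Pairs of anchors both in the outer part of their arm (beyond 66.7%) were 60 of 256 (23.4%, 18.4% to 29.1%), against 20.98% of possible pairs. Pairs both in the inner part (within 33.3%) were 7 (2.73%, 1.11% to 5.55%), against 2.97%.

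Anchors with more tags took part more often. The 760 anchors had a median of 1464 tags in *myc2* (quartiles 998 and 2127), and the 14285 other *myc2* anchors had 1142 (727 and 1632). Counted per loop, the tags of both anchors summed to a median of 3070 in the far loops and 3051 in all other *myc2* loops. In the *myc2* loops of 40 to 200 kb the median sum was higher, at 4280.5. Of the anchors in the lowest decile by tags, 2.66% (1.91% to 3.60%) were in a far loop, and of those in the highest decile 10.7% (9.18% to 12.4%). Between chromosomes, rates by tags were taken over pairs of *myc2* anchors, whose median was 1156 tags. The rate was 1.03 loops per 1000000 pairs (0.652 to 1.54) where both anchors had at most that median. It was 2.60 (2.14 to 3.11) where 1 was above it and 5.24 (4.33 to 6.28) where both were above it. The anchors were also wider, with a median of 1022.5 bases against 884. Leaving out the far loops themselves, they had a median of 5 *myc2* loops each (quartiles 3 and 7) against 4 (2 and 6). Which of tags, width and number of loops goes with the far loops was not tested.

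**Figure D5:**
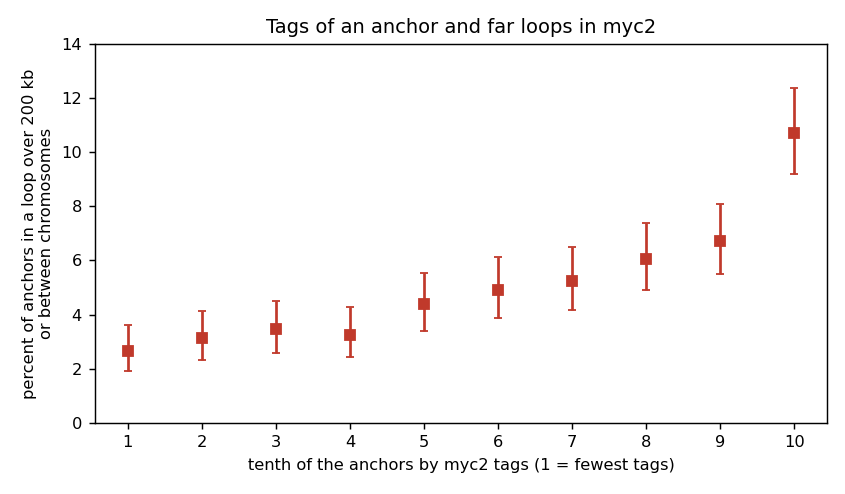
The x axis ranks the *myc2* anchors by tags in groups of 1504 or 1505 and the y axis gives the percentage of each group in a loop over 200 kb or between chromosomes, with exact binomial 95% intervals. The percentage is 2.66% at the fewest tags and 10.7% at the most.

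The anchors' tags stood to those of Col-0 much as at other anchors. Where Col-0 had 300 tags or more, the ratio of *myc2* to Col-0 tags had a median of 0.789 (quartiles 0.742 and 0.840) over 738 anchors of these loops and 0.775 (0.720 and 0.826) over 13767 others. Of the 760 anchors 742 were also used by a Col-0 loop, as were 14742 of all 15045 *myc2* anchors. For 408 of the 427 loops both anchors were used in Col-0. The loops themselves were listed in Col-0 in 2 cases (0.468%, 0.0568% to 1.68%), against 219 of 1374 *myc2* loops of 40 to 200 kb (15.9%, 14.04% to 17.98%). The share over all *myc2* loops is not given here. The Col-0 list starts at 10 PETs and 327 of the 427 loops had 5 PETs, so a Col-0 counterpart of like count would not have been listed.

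Most far loops in *myc2* stood alone. Joining loops whose anchors lay within 50 kb of another's at both ends left 418 of 427 alone (97.9%, 96.0% to 99.0%), against 402 of 1374 loops of 40 to 200 kb (29.3%, 26.9% to 31.7%). The exceptions were the 7 loops of the chromosome 3 regions and a pair on the same arm. In that pair WIP3 was joined to AT3G15520 over 0.912 Mb and AT3G13440 to IAA19, an auxin-response repressor gene, over 0.887 Mb, with 5 PETs each. Between chromosomes, no loop had another within 50 kb at both ends. In Col-0 1 of the 4 far loops stood alone. The shares of *myc2* are not matched for density. Per possible anchor pair, loops of 40 to 200 kb were far more frequent than any class of far loops, as given above. The 50 kb allowed is also longer than the shortest spans of 40 to 200 kb. Whether far loops stood alone more often than their density alone would give was not tested.

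Of the 760 anchors 687 were in 1 far loop (90.4%), 56 in 2, 13 in 3 and 4 in 4. GOX1 (AT3G14420), which encodes glycolate oxidase of photorespiration, had 6499 tags and was joined with 5 PETs each to DYL1, RSH3, AT2G35490 and SCPL27, on chromosomes 1, 1, 2 and 3. TGH (AT5G23080), which acts in microRNA processing, was joined to RIE1 on chromosome 2 and to FTRA2, SK13 and AT5G23760 on its own chromosome, with 5 to 6 PETs. AT1G72700, an ATPase gene, was joined to AT1G66070, ABCG25, BLH1 and BPM4, with 5 to 6 PETs. HKL1 (AT1G50460), a hexokinase-like gene, was joined to NAM, AT1G67930, AT3G57070 and AT4G21920 with 5 PETs each. With these 4 included, the anchors had 14, 13, 10 and 9 *myc2* loops in all.

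Among anchors in 3 far loops, RCA (AT2G39730), the gene of rubisco activase, held 7438 tags, the most of any *myc2* anchor. It was joined to PKS2, a phytochrome kinase substrate gene, with 6 PETs and to DDF1 and AT5G56220 with 5 PETs each, all on other chromosomes. AT2G34930, a disease resistance family gene with 4909 tags, was joined to CSLB04, D6PKL1 and AT5G41740 with 5 PETs each. The RNA-binding protein gene AT4G26650 reached AXR3, an auxin-response repressor gene, with 5 PETs, AT3G05130 with 6 PETs and an anchor without a gene with 5 PETs. XBAT31 (AT2G28840), a ubiquitin ligase gene, reached AT1G04540 and AT1G71080 with 5 PETs each and RPE, an enzyme gene of the Calvin cycle, with 6 PETs.

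Nearly all far loops joined gene starts, as did other loops. A promoter, from 1 kb before to 0.5 kb after a gene start, overlapped 96.2% (94.6% to 97.4%) of the 760 anchors and 94.9% of all 15694 anchors. Promoters lay at both ends of 398 of the 427 loops (93.2%, 90.4% to 95.4%) and of 92.8% of the other *myc2* loops. Taking for each anchor the gene that covers most of it, the anchors gave 749 genes of 15006 genes at any anchor.

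Gene lists were made from words in the annotated product names, so they can hold genes of other kinds. Genes named as a protein kinase were 39 of 749 (5.21%, 3.73% to 7.05%), against 3.57% of all anchor genes. Genes with the word kinase alone were 56 (7.48%, 5.70% to 9.60%) against 6.14%. This wording adds protein kinase genes named otherwise, such as MPK7, CRK and SK13. It also adds enzymes of small molecules, such as HKL1 and the pyruvate kinase gene PKP-ALPHA. The 56 included MPK3 and MKK5 of the stress kinase cascade, MPK3 in 2 loops between chromosomes with 5 PETs each. Genes with the words WRKY, MYB, bHLH, homeobox or zinc finger were 27 (3.60%, 2.39% to 5.20%) against 3.52%. Among them were PHB, a homeobox regulator of leaf polarity, and WRKY21, but also zinc finger genes of other functions, such as the ARF GAP-like gene ZIGA4. Ubiquitin and proteasome genes were also 27, against 3.73%, with UBQ10 in 2 loops. Ribosomal protein genes were 8 (1.07%, 0.462% to 2.09%) against 1.75%, and RNA-binding and splicing genes 10 (1.34%, 0.642% to 2.44%) against 1.61%. Chlorophyll and photosystem genes were 7 (0.935%, 0.377% to 1.92%) against 0.446%, and included LHCA3, LHCB4.1, PSBQA and PSAN. Heat shock protein genes were 6 (0.801%) against 0.486%, genes of the translation factor list 6 (0.801%) against 0.693%, and histone genes 2 (0.267%) against 0.180%. The translation factor list also took in AT1G71080, named as an RNA polymerase II transcription elongation factor. The interval held the share over all anchor genes in each of these lists except that named as a protein kinase, and there it held it with the wider wording.

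The jasmonate genes were too few at anchors for a comparison. Of the 22 genes in that list 18 were the main gene of an anchor, MYC3, MYC4, COI1, LOX2, AOS and JAR1 among them, and 0 of 749 far-loop genes were in it, against 0.120% of all anchor genes. The anchor that overlaps the MYC2 promoter, with 3562 Col-0 tags and 1423 *myc2* tags, was in no far loop in either list. Of the shoot markers, RBCS1A, CAB1 and HCEF1 had anchors with 2968, 1376 and 2176 *myc2* tags, and RBCS1A was in 1 loop of 5 PETs with AT5G57460 on chromosome 5. The light-harvesting gene AT2G05100 was the main gene of no anchor. None of the 4 root markers was the main gene of an anchor.

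The sequence of these genes' starts was searched on both strands for 5 motifs, none contained in another, over 250 bases before and 50 bases after the gene start. The G-box CACGTG was in 80 of 749 starts (10.7%, 8.56% to 13.1%), against 8.93% of 15006 starts at any anchor. The GAGA repeat GAGAGAGA was in 11.5% (9.29% to 13.98%) against 7.90%, the only motif of the 5 whose interval left out the share over all anchors. The site II element TGGGCC was in 22.2% (19.2% to 25.3%) against 20.5%, the telo-box AAACCCTA in 4.41% (3.05% to 6.13%) against 5.31%, and TATAAA in 52.1% (48.4% to 55.7%) against 50.9%. A match is a string of letters and says nothing of a bound factor. The anchors' GC content had a median of 39.7% for both the 760 anchors and all anchors.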

How the data were processed

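For each genotype the authors ran ChIA-PET Tool V3 on the TAIR10 genome, combined the replicates, used merged H3K4me3 ChIP-seq peaks as anchors and kept loops at an FDR under 0.05 and above a PET count that they set by sequencing depth. The aligner run inside that tool is not given in the sources used here. Per loop and anchor, the deposited lists hold counts of PETs and of tags, with no scaling for depth, and the authors' p-value and FDR, also on a −log10 scale that was not used. PETs sum to 745505 in Col-0 (36723 loops) and 297390 in *myc2* (32312 loops). The loops and gene lists were chosen with earlier results of these data known.

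Genes and sequences came from RefSeq's TAIR10.1, in whose chromosomes all 15694 anchors fit. An anchor was given the gene that, from 1 kb upstream to its end, covered most of it and at least 50%. Named genes are those of the 10 loops with most PETs and the 10 anchors with most far loops in each genotype, of loops in both lists, and of the fixed lists. MPK3, MKK5, PHB and similar examples of lists, and the longest loops, were chosen after their values were seen. The centromere was placed at the middle of the 2 Mb window with fewest genes, in steps of 100 kb. Possible anchor pairs are all pairs of anchors of both lists, except in the rates by tags, which take pairs of *myc2* anchors. Alike stretches were found with BLAST 2.17.0 at 80% identity and an E-value of 1e-05. Copies near a partner anchor were searched after seeing the data. With 1 list per genotype no test was run. Exact binomial and Poisson intervals were computed with scipy 1.17.1 in Python 3.11.15. The choice, matching and grouping of loops, the centromere window and the arm positions were checked on simulated data, the intervals were not.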

Additional observations from a re-analysis of the deposited data

How the results depend on the processing

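No paired analysis was possible because the authors combined the replicates into 1 loop list per genotype, which also means that no replicate could be left out. Of 71 alternatives 50 left a count within 1.5 times, or another value within its own interval. Some of the 50 could not have changed a count. An FDR under 0.001 removed no loop, since the highest FDR of the far loops was 7.58e-05. Leaving out loops with an alike stretch removed none, since 0 had one. A minimum of 10 PETs is where the Col-0 list already starts. The Col-0 count of 4 became 20 at over 100 kb, 2 without its PPR2 anchor or when loops within 10 kb (or, added after seeing the data, 50 kb) were joined, and, also added later, 1 without the chromosome 3 regions. With 20 PETs as minimum it was 0. The *myc2* counts of 427 in all and 256 between chromosomes became 1 and 1 at 10 PETs and 0 at 20. The *myc2* minus Col-0 share, 1.31 percentage points, was 1.57 at over 100 kb and 1.14 at over 1 Mb. It turned to -0.00122 at 10 PETs in both lists and was 0 at 20, with no correction for the unequal PETs of the lists. Minimums of 6, 7, 8 and 9 PETs, chosen after seeing the data, gave 0.393, 0.112, 0.0277 and 0.0129. With all genes whose promoter overlaps an anchor, ribosomal protein genes went from 8 to 13, histone genes from 2 to 4 and RNA-binding genes from 10 to 16. Shared loops, arm positions, crossings of the centromere, chromosome pairs, tags and alike stretches kept their values within these limits. The wider wording of the kinase list, 56 genes against 39, was added after seeing the data. At 5 PETs a loop's count has a wide counting error, and PETs of loops under a list's minimum are not known.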
